A study of Homo sapiens with 28 samples.

Results

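The loci of FOXF1, its neighbour FENDRR and FOXF2 were examined for peaks of FOXF1 itself, of phosphorylated c-JUN (p-c-JUN) and of acetylated histone H3 lysine 27 (H3K27ac). All deposited peaks were taken that overlapped 1 of 2 windows of human genome build hg19, chr16:86150000-86590000 (440 kb, FOXF1, FENDRR and the region upstream of them, here the FOXF1 window) and chr6:1330000-1480000 (150 kb, the FOXF2 window). These windows held 620 of the 1123812 peaks of the 28 libraries, 501 in the FOXF1 window and 119 in the FOXF2 window. Of these, 51 came from the 8 FOXF1 libraries, 208 from the 6 p-c-JUN libraries and 361 from the 14 H3K27ac libraries.

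The measurement was CUT&RUN, in which an antibody directs a nuclease to cut the DNA around its target. The cells were IMR-90 ER:Ras, an established line of fibroblasts from fetal human lung with a Ras oncogene fused to an oestrogen receptor domain, so that 4-hydroxytamoxifen (4-OHT) switches the oncogene on and drives the cells into senescence. Senescent cells after knockdown of FOXF1 and FOXF2 (siFOXF1/2), after a knockdown titled cJUN/JUND-KD, or after knockdown of 2 histone acetyltransferases, p300 and CBP (sip300/CBP), were set against senescent cells with control siRNA (Sen), and Sen cells against proliferating cells (Pro). All samples, those titled Pro included, carried tags for 100 nM 4-OHT over 6 days and for a senescent fibroblast, the Pro samples carried the same control siRNA tag as the Sen samples, and the treatment tag of the cJUN/JUND-KD samples also named JUNB. Each group had 2 libraries per antibody, except H3K27ac in Sen cells, with replicates 1 and 2 in a first deposit and replicates 3 and 4 in a second one that also held the cJUN/JUND-KD libraries. The sip300/CBP experiment had a Sen control of its own. The labels do not say whether the replicates were separate cultures, and p-values here reflect the spread between libraries, which may be technical.

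FOXF1 and FOXF2 are forkhead transcription factors of the mesenchyme of lung and gut, which bind DNA as monomers through a winged-helix domain. FENDRR is a long noncoding RNA that starts next to FOXF1 and is transcribed away from it. The region upstream of FOXF1 is known for distant lung enhancers, whose deletion in people causes a lethal failure of lung vessel development. c-JUN is a subunit of AP-1, and its phosphorylation by stress kinases raises its activity. H3K27ac marks active enhancers and promoters.

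The RefSeq promoter set, on build GRCh38.p14, held an entry for 2 of the 3 genes, FENDRR and FOXF2. The 250 bases before each start site are shown as the sequence in which binding words of the profiled factors were searched. Capitals mark a match to a forkhead word. The FENDRR stretch is chr16:86508861-86509110 on the minus strand and the FOXF2 stretch is chr6:1389326-1389575 on the plus strand. These positions were not converted to hg19, so whether a peak lies over either stretch was not tested.
FENDRR: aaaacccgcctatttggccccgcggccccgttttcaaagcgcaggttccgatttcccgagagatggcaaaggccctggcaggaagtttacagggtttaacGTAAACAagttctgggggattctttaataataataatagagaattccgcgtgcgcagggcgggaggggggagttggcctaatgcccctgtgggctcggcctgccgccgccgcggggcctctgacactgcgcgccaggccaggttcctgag
FOXF2: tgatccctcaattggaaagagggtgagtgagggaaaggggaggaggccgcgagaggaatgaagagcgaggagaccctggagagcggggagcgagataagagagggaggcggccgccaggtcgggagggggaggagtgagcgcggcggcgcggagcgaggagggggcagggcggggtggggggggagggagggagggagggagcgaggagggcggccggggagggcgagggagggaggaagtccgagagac

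Both strands were searched for 3 forkhead words, which were TGTTTAC, the variant ending in T instead, TGTTTAT, and the variant with G before its last base, TGTTTGC. The AP-1 word TGANTCA was searched in the same way. FENDRR had 1 match, TGTTTAC on the opposite strand, from 150 to 144 bases before the start. FOXF2 had 0 matches to any of the 4 words, and its stretch was 70.8% G and C, against 59.2% in FENDRR. Among 35116 promoter stretches of the same length, 2.98% held TGTTTAC, while the shares were 3.77% for TGTTTAT, lower at 3.23% for TGTTTGC, and 6.57% for the AP-1 word. At least 1 of the 3 forkhead words was held by 9.52% of the stretches. A match is a description of the letters and not of binding.

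The FOXF1 lists differed in length far more than the other lists. They held 400 and 902 peaks after cJUN/JUND-KD, 203 and 143 after siFOXF1/2, 13622 and 40556 in Sen cells, and 3456 and 11080 in Pro cells. The p-c-JUN lists held between 24834 and 93466 peaks and the H3K27ac lists between 1566 and 89338. No read depth came with the lists, so the absence of a peak says that it was not called in that list, not that the protein or mark was absent. Peak height is given below as the authors' fold enrichment, the pileup of fragments at the summit over the local background, and as the summit pileup in fragments, which was solved from the fold enrichment and the p-value. Both describe a peak within its own list.

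FOXF1 peaks lay in both windows in Sen and in Pro cells. There were 12 and 27 in the Sen libraries, against 3 and 9 in the Pro libraries, so that the groups did not overlap (19.5 ± 10.6 in Sen and 6 ± 4.24 in Pro, SD, n = 2 each; difference 13.5, exact two-sided permutation p = 0.333, the smallest that 2 against 2 allows). The number followed the length of the lists. As a share of its list, it was 0.0881% and 0.0666% in Sen cells, against 0.0868% and 0.0812% in Pro cells, and these ranges overlapped (difference -0.00668 percentage points, exact permutation p = 1). With every list limited to its 3456 best peaks, the 2 Sen lists held 5 window peaks and the 2 Pro lists 6.

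Both windows were denser in FOXF1 peaks than the genome as a whole in these 4 lists. In the FOXF2 window this rested on few peaks, 2 and 6 in the Sen lists and 1 and 2 in the Pro lists. Over the 2 windows together, Sen libraries had 2.03 and 4.58 peaks per 100 kb, 4.4 and 3.32 times the density over the whole genome. Pro libraries had 0.508 and 1.53 peaks per 100 kb, 4.35 and 4.06 times the density over the genome. For the 2 windows together the ratio was 2.2 to 3.57 in the p-c-JUN lists and 2.02 to 3.12 in the H3K27ac lists other than the short lists of the sip300/CBP experiment. That did not hold for the FOXF2 window on its own in every list. In that window p-c-JUN had 0.667 peaks per 100 kb in both Pro lists, against 0.842 and 1.09 over the genome, and H3K27ac had 2 in Sen replicate 2 and 0.667 in Sen replicate 4, against 2.07 and 0.906 over the genome. Just inside the ends of the windows, Sen replicate 2 had its outermost peaks 13.3 kb and 16.2 kb from the ends of the FOXF1 window, with fold enrichments of 3.75 and 3.89. Just outside, the nearest FOXF1 peak lay 19.5 to 21.9 kb beyond the upper end in both Sen and both Pro lists. In Sen replicate 1 and both Pro lists these peaks overlapped, with fold enrichments of 7.52 in Sen and 5.34 and 6.63 in Pro. In Sen replicate 2 the nearest was a separate peak, at 2.62.

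**Figure D1:**
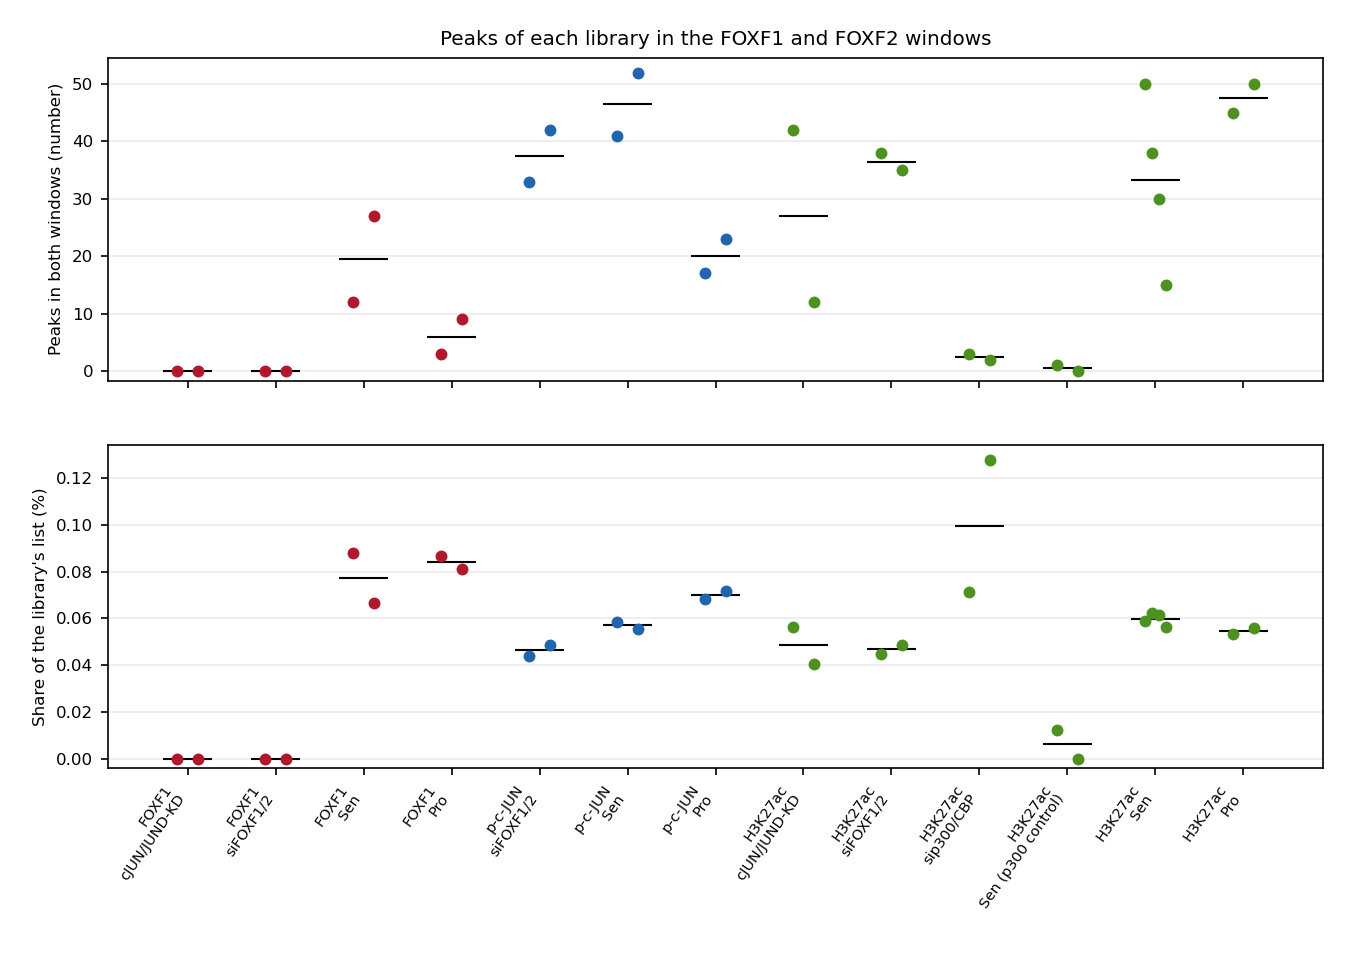
Peaks of each library in the FOXF1 and FOXF2 windows together, as a number (top) and as a percentage of that library's peak list (bottom). Each point is a library, horizontal lines are group means, and red, blue and green mark FOXF1, p-c-JUN and H3K27ac; H3K27ac Sen holds the libraries of both deposits. FOXF1 in Sen cells stands above Pro in number (12 and 27 against 3 and 9) but not in share.

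Joined by overlap, the FOXF1 peaks of the 8 libraries made 31 sites, 25 in the FOXF1 window and 6 in the FOXF2 window. A peak was called in both Sen lists at 11 sites, 9 in the FOXF1 window and 2 in the FOXF2 window, which are lettered A to K in genome order. Both Pro lists held 1 of the 31 sites. Of the 11, site A was in all 4 lists, 6 sites were in both Sen lists and 1 Pro list, and 4 were in both Sen lists and neither Pro list. The other 20 sites included 15 found in Sen replicate 2 alone, the longest list.

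Site A, at chr16:86256646-86257117, was the FOXF1 site held by both Sen and both Pro lists. Its fold enrichment was 6.64 and 7.35 in Sen cells, against 9.99 and 10.8 in Pro cells. The summit pileup was 20 and 32 fragments in Sen (95% exact Poisson intervals 12.2 to 30.9 and 21.9 to 45.2) and 28 and 35 in Pro (18.6 to 40.5 and 24.4 to 48.7), intervals that overlap and cover counting error only. The 4 summits lay within 43 bp of each other. It was the window peak with the best q-value in both Pro lists, at ranks 175 and 241, and in Sen replicate 2, at rank 2524. All 6 p-c-JUN lists held a peak over it, with fold enrichments of 7.9 and 7.11 after siFOXF1/2, 6.52 and 7 in Sen cells and 7.08 and 6.89 in Pro cells, values that lay close together. H3K27ac peaks overlapped it in both siFOXF1/2 libraries, Sen replicates 1 and 2 and both Pro libraries. That of Pro replicate 2 reached only its upper end, beyond the FOXF1 summits. No H3K27ac peak was called over it after cJUN/JUND-KD, nor in Sen replicates 3 and 4, the controls of the same deposit. In Sen replicate 1 the overlapping peak ran over 3021 bp, the widest H3K27ac peak of that library in the windows.

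The remaining sites in both Sen lists and 1 Pro list were C, D, G and I in the FOXF1 window and J and K in the FOXF2 window. Site C, at chr16:86292203-86292756, had a FOXF1 fold enrichment of 7.16 and 7.25 in Sen cells, against 6.26 in Pro replicate 2. It carried p-c-JUN in all 6 lists and H3K27ac in both cJUN/JUND-KD, both siFOXF1/2, 3 of 4 Sen and both Pro lists. Site D, at chr16:86339705-86340126, was weak, at 4.21 and 3.74 in Sen cells and 4.84 in Pro replicate 2. Site D carried p-c-JUN in Sen replicate 2 alone, and H3K27ac in 1 of 2 siFOXF1/2, 1 of 4 Sen and both Pro lists.

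Site G, at chr16:86495808-86496376, had a FOXF1 fold enrichment of 5.55 and 7.08 in Sen cells, against 7.31 in Pro replicate 2. Peaks of the other 2 antibodies reached into it mainly in Pro cells, and their presence there rested on peak edges. p-c-JUN was called in neither Sen nor siFOXF1/2 list but in both Pro lists, at 3.3 and 3.98. H3K27ac was called in none of 4 Sen and neither siFOXF1/2 list but in both Pro lists, at 3.07 and 2.6, and in cJUN/JUND-KD replicate 1, at 3.06. The H3K27ac peaks of both Pro lists ended before the FOXF1 peaks of both Sen lists began. The p-c-JUN peaks of both Pro lists had summits below all FOXF1 summits of the site. They ended before the FOXF1 peak of Sen replicate 1 began.

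Site I, at chr16:86542599-86543200, had a fold enrichment of 5.95 and 6.8 in Sen cells, against 8.28 in Pro replicate 2, with summit pileups of 14 and 20 fragments in Sen and 21 in Pro. None of the 14 H3K27ac lists had a peak over it. p-c-JUN was called in Sen replicate 2 alone, at 3.77 with 7 fragments. A separate FOXF1 peak of Pro replicate 1 began within 1 kb of it, at chr16:86543565-86543789, with a fold enrichment of 4.42.

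In the FOXF2 window, site K, at chr6:1419293-1419569, had the highest FOXF1 fold enrichment of any window peak in both Sen lists, 8.88 and 9.36, against 6.46 in Pro replicate 2. Its summit pileup was 18 fragments in both Sen lists and 11 in Pro. It carried no p-c-JUN peak in any of the 6 lists. Site J, at chr6:1407845-1408185, was weaker in FOXF1, at 5.17 and 3.89 in Sen cells and 5.11 in Pro replicate 2, but strong in p-c-JUN, at 5.8 and 7.94 after siFOXF1/2 and 8.59 and 10.5 in Sen cells, against 5.92 in Pro replicate 2. H3K27ac over J was called in both cJUN/JUND-KD, neither siFOXF1/2, 3 of 4 Sen and 1 Pro list. A further site of this window, chr6:1396983-1397430, was called in Sen replicate 2 at 8.29 and in Pro replicate 1 at 4.12, and in neither of the other 2 lists. Sites J and K, with centres 11.4 kb apart, differed in whether p-c-JUN accompanied FOXF1.

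The 4 sites gained in Sen cells, in both Sen lists and neither Pro list, were B, E, F and H, all in the FOXF1 window. They were 4 of 31 regions, set against 13.1% of all FOXF1 regions of the genome, a share close to that background. No window site was lost, and over the genome 0.35% were. Site B, at chr16:86285301-86285862, had a FOXF1 fold enrichment of 3.92 and 7.4 in Sen cells. Site F, at chr16:86424945-86425660, had 6.4 and 5.03. Site E, at chr16:86408911-86409464, had 3.73 and 5.26, near the weak end of the list in Sen replicate 1 (97.6% of the way down by rank) but near the middle in Sen replicate 2 (51.3%). Site H, at chr16:86511337-86511603, had 4.13 and 3.96 and stood 88.4% and 82.3% of the way down. The summit pileups of these 2 sites were 6 to 10 fragments. The summits of the 2 Sen lists lay 201 bp apart at B, 107 bp at E, 314 bp at F and 69 bp at H. At E and at F the 2 Sen peaks overlapped only at their ends. The count of gained sites rested on the list lengths and on how peaks were joined. With lists of equal length it was 0, without Sen replicate 1 it was 19, and without Pro replicate 2 it was 10. With an overlap of 50% it was 2. Lost sites numbered 2 without Pro replicate 1 and 1 without Pro replicate 2.

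The gained sites differed in what else they carried. E had p-c-JUN in all 6 lists, at 8.11 and 6.1 in Sen cells and 5.71 and 6.26 in Pro cells, and H3K27ac in 1 cJUN/JUND-KD, both siFOXF1/2, 3 of 4 Sen and both Pro lists. The H3K27ac peak over E was the best-ranked window peak of Sen replicate 1, with a fold enrichment of 6.68 and 50 fragments. B had H3K27ac in 1 cJUN/JUND-KD, neither siFOXF1/2, 3 of 4 Sen and both Pro lists, and no p-c-JUN peak in any list. H had H3K27ac in both Pro lists, at 3.07 each, and in none of the siFOXF1/2, Sen or cJUN/JUND-KD lists, while p-c-JUN was called in both siFOXF1/2 lists, both Sen lists, at 5.37 and 8.15, and 1 Pro list, at 4.23. At F, p-c-JUN presence rested on peak edges. The peaks of both siFOXF1/2 lists and of Sen replicate 1 reached into it, the siFOXF1/2 peaks with summits beyond its end, while those of Sen replicate 2 and Pro replicate 1 began just past its end. F had H3K27ac in 1 cJUN/JUND-KD, 1 siFOXF1/2, 2 of 4 Sen and neither Pro list.

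**Figure D2:**
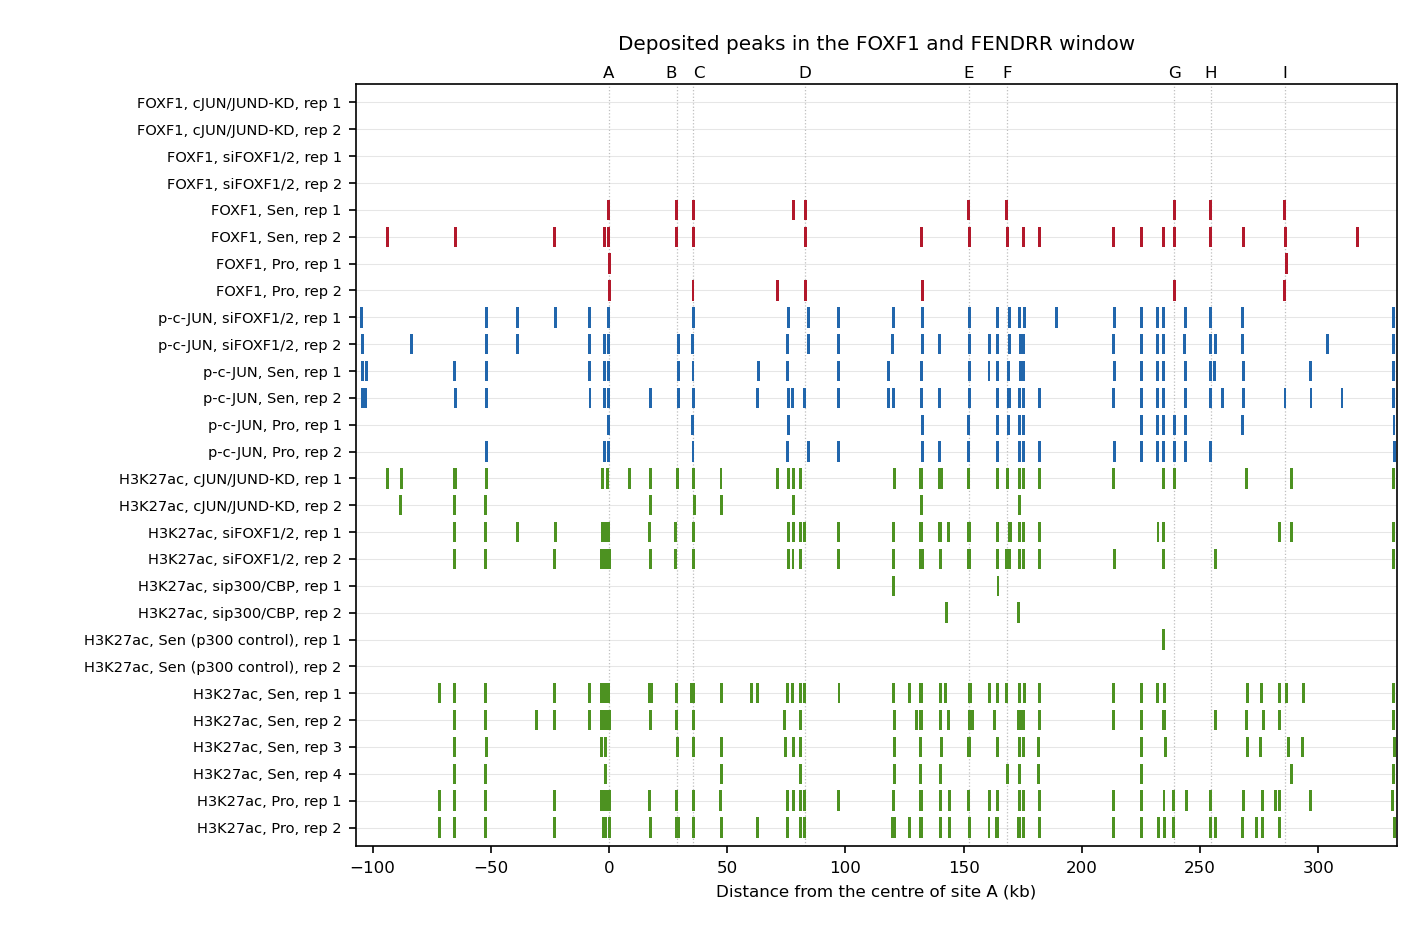
Every deposited peak in the FOXF1 and FENDRR window, one row per library, by distance in kb from the centre of site A; red, blue and green bars are FOXF1, p-c-JUN and H3K27ac peaks, drawn at a minimum width so that narrow ones can be seen. Letters and dotted lines mark the 9 FOXF1 sites called in both Sen lists. The 4 FOXF1 rows after knockdown are empty.

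**Figure D3:**
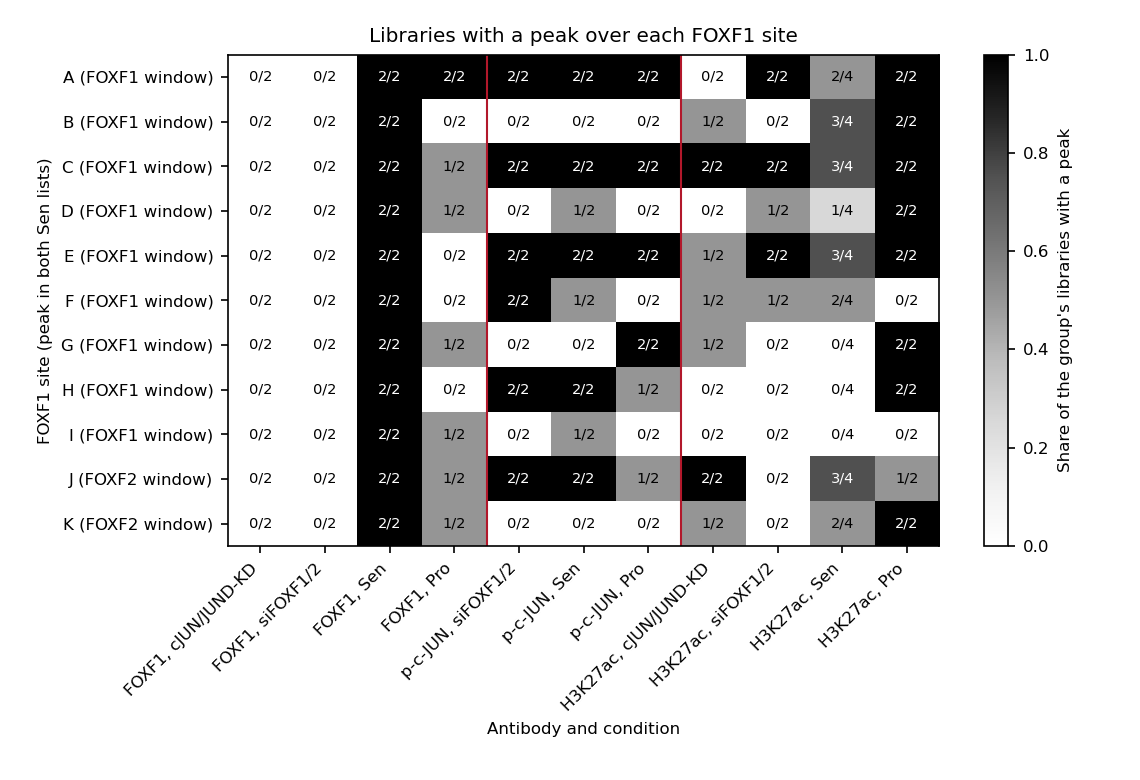
Number of libraries with a peak over each of the 11 FOXF1 sites called in both Sen lists, by antibody and condition, as a count of the libraries in the group and as a grey shade from none (white) to all (black). The sip300/CBP experiment, which had no peak over any of the 11 sites, is not drawn. Of the groups drawn, all but FOXF1 and H3K27ac after cJUN/JUND-KD and FOXF1 after siFOXF1/2 have a peak at site A, site I has no H3K27ac, and site G has p-c-JUN in Pro lists alone.

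Over the 11 sites as a group, p-c-JUN was called in both Sen lists at 5, in 1 at 3 and in neither at 3. Over all 11287 FOXF1 regions held by both Sen lists, 73.7% had both. H3K27ac was called in both Sen lists of the first deposit at 6, in 1 at 2 and in neither at 3, with 65.9% having both over the genome. With so few sites these shares carry no test. The windows lay below the genome in both shares here, and the order turned when Sen replicate 2 of FOXF1 alone was used. The p-c-JUN count was then 17 of 27 FOXF1 peaks (63%), beside 56.3% over the genome, and the H3K27ac count was 15 of 27 (55.6%), beside 49.7%. With Sen replicate 1 of FOXF1 alone, the windows stayed below the genome in both shares. The p-c-JUN count was 5 of 12 (41.67%), beside 66.65%, and the H3K27ac count was 6 of 12 (50%), beside 57.93%.

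After knockdown of FOXF1 and FOXF2, the FOXF1 lists had 0 and 0 peaks in the windows, against 12 and 27 in Sen cells (difference -19.5, exact permutation p = 0.333). All 11 sites were lost, of 28 regions, against 26.2% of FOXF1 regions over the genome, and 0 were gained, against 0.0607%. After cJUN/JUND-KD the FOXF1 lists likewise had 0 and 0 window peaks, with 11 of 28 regions lost, against 25.4% over the genome, and 0 gained, against 0.148%. The length of the lists limits what these zeros show. The best window peak stood at rank 1199 in Sen replicate 1 and at rank 2524 in Sen replicate 2, beyond the length of every knockdown list. When the Sen lists were limited to the 143 best peaks for siFOXF1/2, or the 400 best for cJUN/JUND-KD, they held 0 window peaks as well. Without Sen replicate 1, 27 regions were lost in both comparisons. The cJUN/JUND-KD libraries came from the second deposit and the FOXF1 Sen libraries from the first deposit, and the effects of deposit and knockdown cannot be told apart.

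Phosphorylated c-JUN had more peaks in the windows in Sen cells, in lists that were also longer, with 70199 and 93466 peaks in Sen and 24834 and 32154 in Pro cells. The Sen lists had 41 and 52 window peaks, against 17 and 23 in Pro lists (46.5 ± 7.78 and 20 ± 4.24, SD, n = 2 each; difference 26.5, exact permutation p = 0.333). Of 57 regions, 16 were gained, set against 28% over the genome, which is the same share, and 1 was lost, against 0.307%. As a share of the list the order turned, to 0.0584% and 0.0556% in Sen cells against 0.0685% and 0.0715% in Pro cells, without overlap (exact permutation p = 0.333). The gains were 8 of 42 regions in the FOXF1 window and 8 of 15 in the FOXF2 window. With lists of equal length 1 region was gained and 3 were lost. Without Sen replicate 1 the number gained was 28, and without Pro replicate 1 the number lost was 2.

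The FOXF2 window held 7 and 11 p-c-JUN peaks after siFOXF1/2, 11 and 14 in Sen cells, and 1 and 1 in Pro cells. Per 100 kb there were 7.33 and 9.33 in Sen cells, above the 2.38 and 3.17 of these lists over the genome, and 0.667 in both Pro lists, below their 0.842 and 1.09 over the genome. No p-c-JUN region of this window was in all 6 lists, whereas 13 of 46 in the FOXF1 window were (28.3%, beside 14.3% of p-c-JUN regions over the genome). The best-ranked gained region, chr6:1364284-1364893, had a fold enrichment of 11.6 and 16.1 after siFOXF1/2 and of 9.32 and 10.9 in Sen cells, with no peak in either Pro list. Next came chr6:1346577-1347505, at 8.92 and 7.34 in Sen cells. In the FOXF1 window, the gained region with the best ranks was chr16:86286076-86286730, at 5.54 and 8.61 in Sen cells, which begins 214 bp beyond FOXF1 site B. The best-ranked p-c-JUN peak of both siFOXF1/2 lists and of Sen replicate 1 in the FOXF1 window lay at chr16:86353698-86354299, with 15.1 and 15.4 after siFOXF1/2, 16.4 and 13.7 in Sen cells, and 7.81 in Pro replicate 2.

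**Figure D4:**
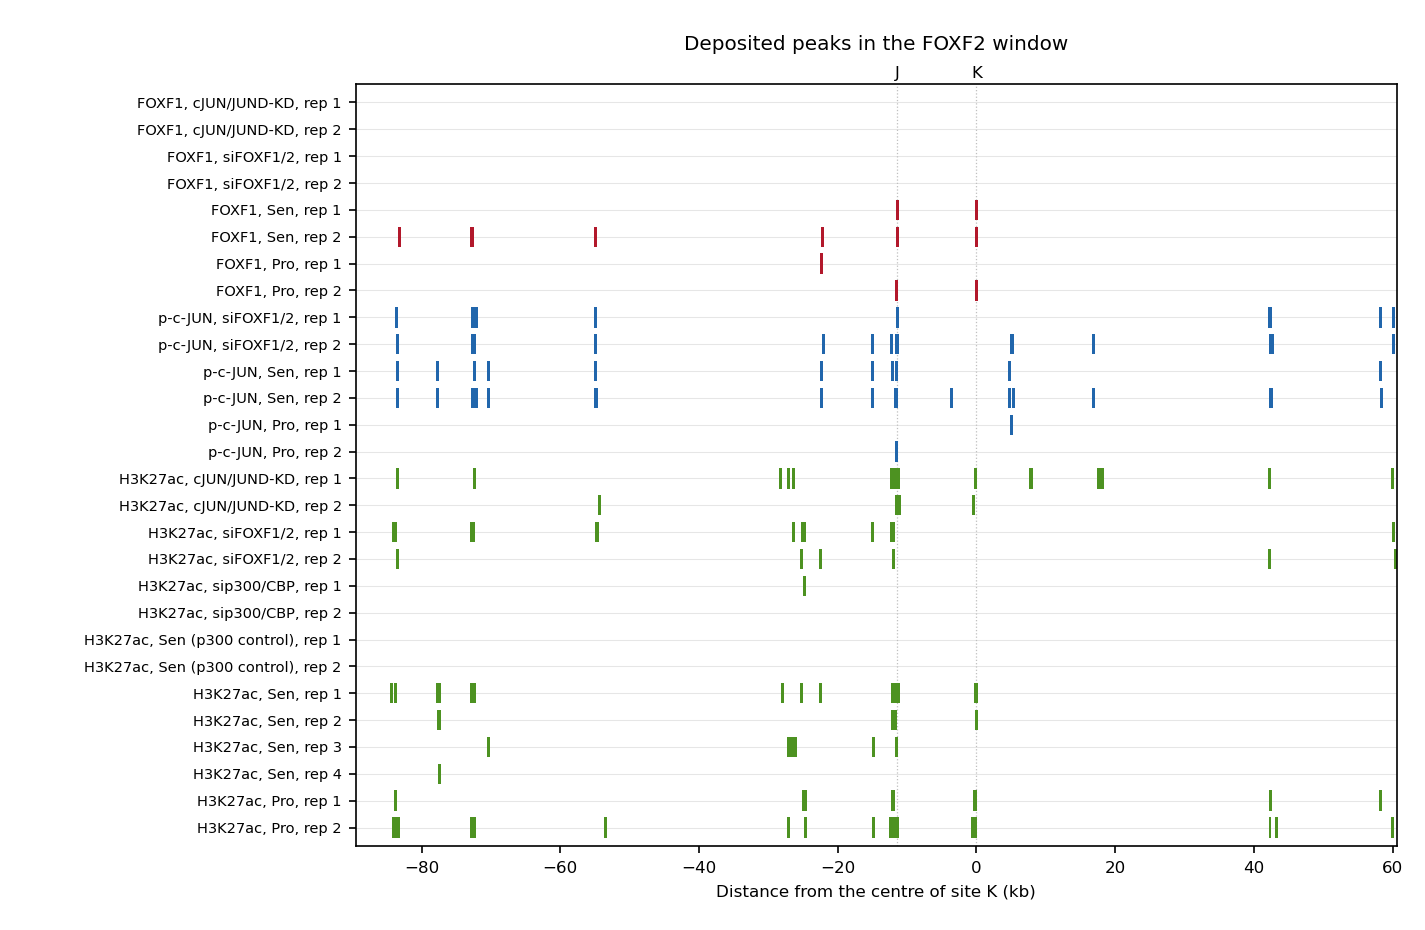
Every deposited peak in the FOXF2 window, one row per library, by distance in kb from the centre of site K, drawn as in the map of the FOXF1 window. Both Pro rows of p-c-JUN hold 1 peak, against 11 and 14 in the Sen rows.

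After knockdown of FOXF1 and FOXF2, p-c-JUN peaks were still called across both windows. The siFOXF1/2 lists had 33 and 42 window peaks, against 41 and 52 in Sen cells, and the groups overlapped (difference -9, exact permutation p = 0.667). Of 60 regions, 25 were in all 4 lists, 3 were gained, set against 4.47% over the genome, and 7 were lost, set against 4.03%. All 7 lost regions were also among those gained in Sen against Pro cells. Both comparisons share the Sen libraries, so these losses are not independent of those gains. The share of the list was 0.044% and 0.0488% after siFOXF1/2, against 0.0584% and 0.0556% in Sen cells, without overlap (exact permutation p = 0.333). The lost regions had Sen fold enrichments of 3.26 to 7.81 and summit pileups of 5 to 19 fragments, beside medians over all window peaks of 5.54 and 6.29 and of 14 and 14.5 fragments in the 2 Sen lists. The best-ranked of them, chr16:86153946-86154270, had 6.09 and 6.7, and the next, chr6:1341496-1341956, had 5.16 and 7.81. The count of lost regions was 15 without Sen replicate 1 and 12 without siFOXF1/2 replicate 2. The number gained was 5 without siFOXF1/2 replicate 1 and 5 without siFOXF1/2 replicate 2.

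Numbers of H3K27ac peaks in the windows overlapped between Sen and Pro cells. The first-deposit Sen lists had 50 and 38 window peaks and the Pro lists 45 and 50 (44 ± 8.49 and 47.5 ± 3.54, SD, n = 2 each; difference -3.5, exact permutation p = 1). Of 72 regions, 3 were gained, set against 4.51% over the genome, and 4 were lost, set against 9.56%. The gained regions were chr16:86248462-86248971, chr16:86526436-86527205 and chr6:1341485-1342225, with Sen fold enrichments between 3.09 and 5.2. The lost regions included that at the lower end of FOXF1 site G and that over site H, described above. They also included chr6:1394306-1395023, at 3.02 and 3.58 in Pro cells, and chr6:1461635-1461972, at 3.36 and 3.67 in Pro cells. With the second-deposit Sen libraries, which had 30 and 15 window peaks, 0 regions were gained and 17 lost. Leaving out 1 library gave 8 gained without Sen replicate 1 and 12 without Sen replicate 2, and 11 lost without Sen replicate 1, 12 without Pro replicate 1 and 9 without Pro replicate 2. As a share of the list, window peaks were 0.0589% and 0.0624% in Sen cells, against 0.0534% and 0.056% in Pro cells, without overlap (exact permutation p = 0.333).

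In the FOXF1 window, 4 H3K27ac regions were in all 10 lists other than those of the sip300/CBP experiment. They were chr16:86190804-86192491, chr16:86204310-86205315, chr16:86388016-86389805 and chr16:86429674-86430999. They made up 6.25% of the H3K27ac regions of that window, beside 5.95% over the genome, a share close to that background. In the second of them the fold enrichment was 7.79 and 4.68 after cJUN/JUND-KD, 5.1 and 4.7 after siFOXF1/2, between 4.93 and 6.05 in the 4 Sen libraries, and 7.71 and 5.88 in Pro cells. None of the FOXF2 window's 19 H3K27ac regions was in all 10 lists.

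After siFOXF1/2 the H3K27ac lists had 38 and 35 window peaks, against 50 and 38 in first-deposit Sen cells, with a tie between the groups (difference -7.5, exact permutation p = 0.667). The direction depended on the Sen libraries, since the difference was 14 against Sen replicates 3 and 4 and 3.25 against all 4, where 2 regions and 1 region were lost. The share of the list was 0.0449% and 0.0488% after siFOXF1/2, against 0.0589% and 0.0624% in Sen cells, without overlap (exact permutation p = 0.333). Of 68 regions, 2 were gained, set against 5.51% over the genome, and 5 were lost, set against 4.26%. The losses comprised the 3 regions gained in Sen cells, for which both comparisons share the Sen libraries, and 2 regions that Pro cells also held. The first of these 2 was chr6:1419033-1419592, over FOXF1 site K, with 4.23 and 4.81 in Sen cells and 4.04 and 5.63 in Pro cells. The second was chr16:86481845-86482556. Losses numbered 11 without Sen replicate 1 and 18 without Sen replicate 2, and gains 7 without Sen replicate 1, 4 without siFOXF1/2 replicate 1 and 9 without siFOXF1/2 replicate 2.

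At chr16:86481845-86482556, H3K27ac was called in none of the 4 siFOXF1/2 and cJUN/JUND-KD lists, but in all 4 Sen and both Pro lists. The fold enrichment was 5.21, 4.04, 3.83 and 3.73 in Sen replicates 1 to 4, with 19, 11, 6 and 6 fragments, and 6.53 and 4.38 in Pro cells. The siFOXF1/2 comparison and the cJUN/JUND-KD comparison used separate Sen libraries there. p-c-JUN was called there in all 6 lists, at 15 and 16.7 after siFOXF1/2 and 12.4 and 15.6 in Sen cells, against 9 and 7.01 in Pro cells. FOXF1 was called in Sen replicate 2 alone, at 6.47 with 12 fragments. This region was picked out after its values were seen, and the peaks of Sen replicates 3 and 4 were among the weakest of their lists. Of 15571 H3K27ac regions held by all 6 Pro and Sen lists, 25 (0.161%) were absent from all 4 knockdown lists, and of the 11 such regions in the windows it was the only one.

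After cJUN/JUND-KD the H3K27ac lists had 42 and 12 window peaks, against 30 and 15 in second-deposit Sen cells, and the groups overlapped (difference 4.5, exact permutation p = 1). The order turned with lists of equal length (difference -2.5) and as a share of the list, which averaged 0.0484% after cJUN/JUND-KD and 0.0588% in Sen cells (exact permutation p = 0.667). Of 51 regions, 3 were gained, set against 7.66% over the genome, and 2 were lost, set against 2.74%. The lost regions were chr16:86481950-86482399, part of the region just described, and chr16:86255030-86255967, at 4.44 and 3.18 in Sen cells with 39 and 19 fragments, which lies 679 bp from FOXF1 site A. At the second of these, H3K27ac was called in both siFOXF1/2 lists, at 3.03 and 3.63. The gained regions were chr16:86168610-86169204, chr16:86274186-86274871 and chr6:1418783-1419462. The last of these touches site K, where H3K27ac was called in neither siFOXF1/2 list and in both first-deposit Sen and both Pro lists, so that at this site the first-deposit and second-deposit Sen libraries differed. The number gained was 18 without cJUN/JUND-KD replicate 2 and 6 without Sen replicate 3, and the number lost was 7 without cJUN/JUND-KD replicate 1 and 9 without Sen replicate 4.

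The sip300/CBP experiment gave few window peaks. There were 3 and 2 after sip300/CBP, against 1 and 0 in its Sen control (difference 2, exact permutation p = 0.333), in lists of 4206 and 1566 peaks after sip300/CBP and 8246 and 2058 in the control. Of 6 regions in the windows, 0 were gained and 0 lost, set against 2.02% and 2.69% over the genome. With so few regions these zeros cannot be set apart from those shares. Of the 4 regions found in all other H3K27ac lists, 1 had a peak in this experiment, that of sip300/CBP replicate 2 at chr16:86430066-86430438, with a fold enrichment of 4.82. The count of gained regions was 2 without sip300/CBP replicate 1 and 3 without replicate 2, and 1 region was lost without replicate 2 of the Sen control.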

How the data were processed

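Each of the 28 libraries had 1 narrowPeak list of peaks. Bowtie2 2.3.4.1, SAMtools 1.9, deepTools 3.1.1, MACS2 3.0.0 and hg19 appear, with no settings, per the submitters' processing notes. With every deposited peak came a display score, a fold enrichment at its summit and −log10 values of p and q, as the authors' peak caller wrote them. A yeast spike-in was added per the labels' protocols, and its use, a control library and the number of mapped reads are not given in the sources used here. The lowest −log10 q of a deposited list lay between 1.3 and 2.22.

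Groups came from the sample titles. The windows, members, motifs and lists were chosen with earlier results of these data known. Peaks on chromosomes 1 to 22 and X entered the region counts, which left out 475 peaks. The peaks of the 4 libraries of a comparison formed 1 region where they overlapped, by 1 bp or more. A gained region had a peak in both libraries of the first-named condition and in neither of the second, and a lost region the reverse. Peak numbers were compared over libraries with an exact two-sided permutation test in 9 comparisons, none of which can reach a p below 0.333, so no adjustment was made. The summit pileup was the whole number of fragments that solved the fold enrichment and p-value, with 1 added to pileup and background, and all 620 peaks were solved within 0.005 on the −log10 p scale. Region joining and pileup were tested on simulated data.

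The rule for named sites took every FOXF1 site in both libraries of a group. It also took the gained and lost p-c-JUN and H3K27ac regions with the best worst rank, up to 5 of each. Not all regions of this rule are named above, and some regions outside it are. The alternatives were −log10 q of 5 or more, lists of equal length, the summit inside the window, an overlap of 50%, each replicate left out, a replicate block and other Sen libraries. The share of the list and a block with crossed numbers were chosen after seeing the data. Annotation of the peaks by gene part, motifs inside the peaks, other genes of the pathway and cell type markers were not analysed here, since no hg19 annotation or sequence was used.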

Additional observations from a re-analysis of the deposited data

How the results depend on the processing

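Peak lists without read depth limit every result, since a list's length decides which weak peaks appear in it, and 2 libraries a group allow no p under 0.333. The cause of the changes below was not tested. Lists of equal length hold the same number of peaks by construction. The share of the list only divides by length, and a longer list can still hold more weak peaks. Neither setting accounts for read depth.

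Below, a peak number difference counts as changed only if its sign turned, and a region count only if it moved beyond 1.5 times. With the summit required inside the window, every peak number difference and region count kept its value. In lists of equal length, peak numbers reversed for FOXF1 in Sen against Pro (-0.5), p-c-JUN in Sen against Pro (-3.5), H3K27ac in Sen against Pro (5) and H3K27ac after cJUN/JUND-KD (-2.5). Gained regions then numbered 0 for FOXF1 and 1 for p-c-JUN in Sen against Pro and 0 for H3K27ac after cJUN/JUND-KD, and lost regions numbered 0 for FOXF1 after siFOXF1/2, 0 after cJUN/JUND-KD, 3 for p-c-JUN in Sen, 1 for H3K27ac in Sen and 4 for H3K27ac after cJUN/JUND-KD. As a share of the list the same 4 peak numbers reversed, to -0.00668, -0.01297, 0.006 and -0.01034 percentage points.

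At −log10 q of 5 or more, gained regions were 1 for FOXF1, 9 for p-c-JUN and 0 for H3K27ac in Sen against Pro, 0 for H3K27ac after siFOXF1/2 and 1 after cJUN/JUND-KD. Lost regions were 6 for FOXF1 after siFOXF1/2 and 6 after cJUN/JUND-KD, 0 for p-c-JUN in Sen, 4 for p-c-JUN after siFOXF1/2, and 0 for H3K27ac after siFOXF1/2 and 0 after cJUN/JUND-KD. FOXF1 regions with p-c-JUN in both Sen lists were 2, and those with H3K27ac 1, of 6. The differences in H3K27ac peak number after siFOXF1/2 and after sip300/CBP fell to 0 at this cutoff, from -7.5 and 2. With a 50% overlap, gained regions were 2 for FOXF1 in Sen and 0 for H3K27ac after siFOXF1/2.

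For H3K27ac after siFOXF1/2, the peak number difference turned to 14 with Sen replicates 3 and 4 and to 3.25 with all 4 Sen libraries, lost regions were 2 and 1, and gained regions 9 with Sen replicates 3 and 4. For H3K27ac in Sen against Pro, gained regions were 0 in both settings and lost regions 17 with Sen replicates 3 and 4.

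Leaving out 1 library at a time gave these ranges. For FOXF1, regions gained in Sen ranged from 4 to 19 and lost from 0 to 2, and regions lost ranged from 11 to 27 both after siFOXF1/2 and after cJUN/JUND-KD. For p-c-JUN, regions gained in Sen ranged from 19 to 28 and lost from 1 to 2, and after siFOXF1/2 gained from 3 to 5 and lost from 7 to 15. For H3K27ac, regions gained in Sen ranged from 3 to 12 and lost from 5 to 12, gained after siFOXF1/2 from 2 to 9 and lost from 6 to 18, gained after cJUN/JUND-KD from 3 to 18 and lost from 2 to 9, and gained after sip300/CBP from 0 to 3 and lost from 0 to 1. The difference in H3K27ac peak number ranged from -9.5 to 2.5 in Sen against Pro, turning positive without Sen replicate 2, and from -10.5 to 19.5 after cJUN/JUND-KD, turning negative to -10.5 without cJUN/JUND-KD replicate 1 and to -3 without Sen replicate 4. FOXF1 regions with p-c-JUN ranged from 5 to 17 and with H3K27ac from 6 to 15, the higher values without FOXF1 Sen replicate 1.

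Libraries with the same number shared no stated origin. With a replicate block, every difference kept its value (13.5 for FOXF1 in Sen against Pro) and p was 0.5 or 1, where 0.5 is the smallest that 2 pairs allow. Same-numbered libraries deviated in opposite ways for FOXF1 in Sen against Pro (r = -0.207 over regions) and for sip300/CBP (r = -0.172), and a block with crossed numbers gave the same differences and p = 0.5 for both.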
